A study of Mus musculus with 26 samples.

Results

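The genes described here encode the mitochondrial tRNA synthetases and the factors that translate the messages of mitochondrial DNA. They were chosen by name, as the probe sets whose platform gene symbol is exactly one of 36 listed symbols. Of these, 35 had a probe set, out of 18193 genes named by a probe set of their own in the whole table, and the release factor gene Mtrf1 was not analysed here. All 35 passed the filter on dim probe sets, and they are represented by 66 probe sets, 55 of them above the filter. RNA came from the tibialis anterior and extensor digitorum longus (TA/EDL), fast hindlimb muscles, of 26 mice, with 1 Affymetrix array per mouse. FLOX mice carry floxed alleles of Ppargc1a, the gene of the transcriptional coactivator PGC-1a, and MKO mice a deletion of it limited to skeletal muscle. The control diet was given to 6 FLOX and 7 MKO mice and calorie restriction (CR) to 6 FLOX and 7 MKO mice. FLOX and MKO mice came as littermates on a C57/BL6 and 129 mixture, lived 1 to a cage and ate AIN-93M food. Per the labels, control mice received 90% of their free intake. CR mice received 80% for 1 week and then 60%, as a diet made for 40% restriction, for about 11 weeks, 12 weeks in all. Neither age nor the driver of the deletion is stated in the sources at hand.

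Mitochondria make the core subunits of the respiratory chain on their own ribosomes, from messages, tRNAs and ribosomal RNAs encoded in mitochondrial DNA. Every protein that loads those tRNAs, modifies them, starts, extends or ends the chain, or protects the messages is encoded in the nucleus and imported. In muscle fibres, which hold many mitochondria, PGC-1a raises nuclear genes for mitochondria together with partner factors such as the estrogen-related receptors, NRF1 and the ETS factor GABP.

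The targeted gene did not bear out the labels. All 5 Ppargc1a probe sets were brighter in the mice labelled MKO on both diets. The ratio ran from 1.53 to 1.76 with the control diet and from 1.34 to 1.57 under CR. The brightest set had intensities of 911 ± 67.3 (SD, n = 6) against 1542 ± 372 (SD, n = 7) on the control diet and 1104 ± 189 against 1674 ± 160 on CR (log2 differences 0.72 and 0.60, adjusted p = 2.46e-05 and 0.000201). A probe outside the deleted part of a gene checks nothing, and where these probe sets lie relative to the deletion is not stated in the sources at hand. The mice are therefore called "labelled MKO", and every genotype direction rests on that label. The 9 markers of fast fibres had summed intensities of 266000 to 281641 over all arrays, so fast muscle was borne out. These markers cannot tell TA/EDL from other fast muscles. Summed markers of slow fibres were 2724 to 7899 and 2650 to 5267 in FLOX mice on control diet and CR, and 3162 to 9255 and 4095 to 17572 in those labelled MKO. One CR array labelled MKO, mouse 6, stood above the rest in slow-fibre genes. Arrays of 1 group correlated at 0.984 to 0.996. Within a group the members varied by a median of 5.59% (coefficient of variation), from 2.21% to 16.9%, and precision is limited by how many arrays there were. In whole muscle, fewer cells of a type and less RNA per cell cannot be told apart.

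Genes of mitochondrial translation were lower in mice labelled MKO than in FLOX mice on both diets, and none of the 35 members was called higher. On the control diet 12 members were lower, and on CR 17 were. The elongation factor genes Tufm and Gfm1 and the synthetase gene Fars2 had the 3 largest differences on each diet. Tufm was 1.35-fold, Gfm1 1.34-fold and Fars2 1.31-fold lower on the control diet, and on CR they were 1.32-fold, 1.35-fold and 1.35-fold lower. The test was limma over 14854 genes, with an adjusted p under 0.05 taken as a call and differences given in log2(intensity + 16), a scale that understates the change of dim genes. Among all genes tested 10.2% were called lower and 9.05% higher on the control diet (19.3% in either direction), against 12 (34.3%) and none of the 35 members. On CR 9.05% of all genes were lower and 8.23% higher (17.3% in either direction), against 17 (48.6%) and none of the members. The members had a median difference of -0.10 under the control diet and -0.12 under CR, beside medians of -0.02 over all genes on both diets. The members leaned the same way even where they were not called: 31 of 35 had a negative difference on the control diet and 30 on CR, while 55.7% and 56.6% of all genes did.

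**Figure D1:**
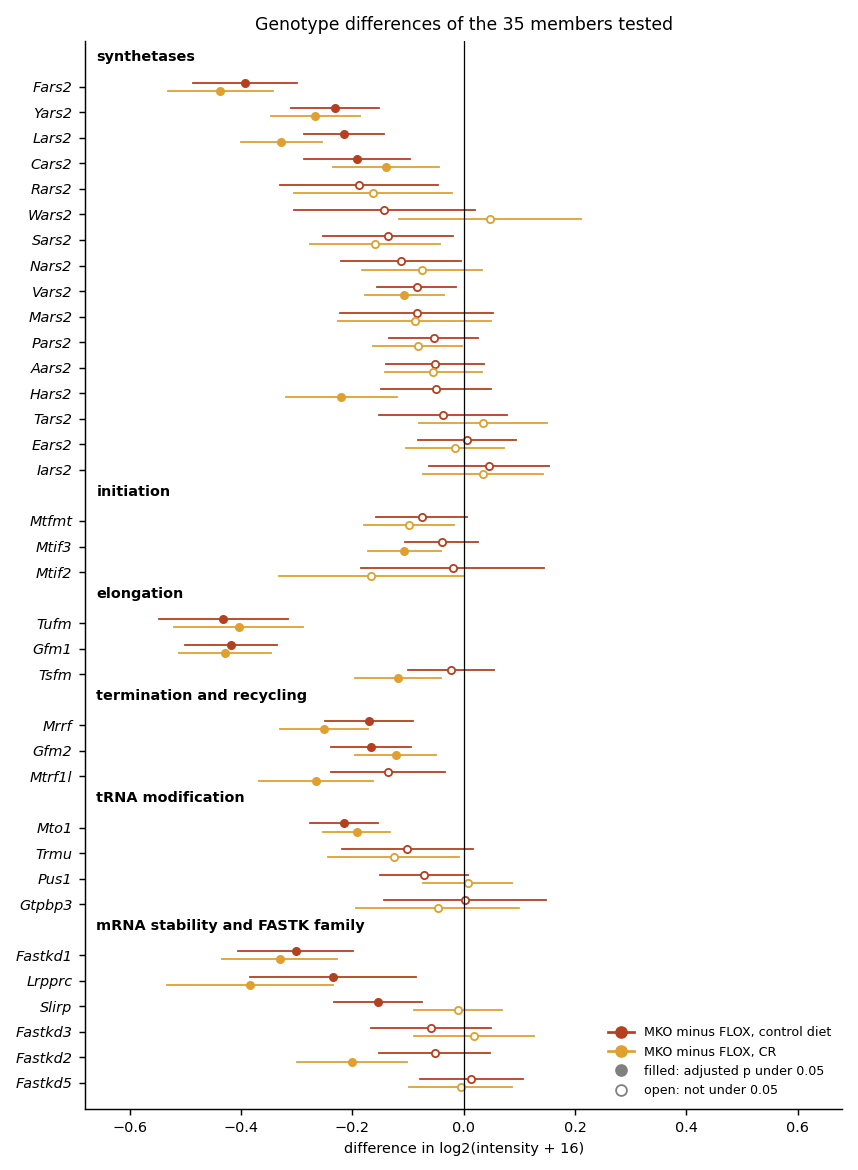
Difference in log2(intensity + 16) between mice labelled MKO and FLOX mice (horizontal axis) for the 35 members, grouped by role, on the control diet (red) and on CR (yellow). Points are limma estimates, bars 95% confidence intervals, and filled points have an adjusted p under 0.05; all 12 filled points of the control diet and all 17 of CR lie left of 0.

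Of the 3 elongation genes, Tufm and Gfm1 were lower on both diets and Tsfm on CR. Tufm encodes the factor that brings each loaded tRNA to the mitochondrial ribosome. On the control diet its intensity was 2182, 2493 and 2662 (lowest, median and highest) in FLOX mice and 1508, 1821 and 2072 in mice labelled MKO. Under CR the values were 2185, 2269 and 2415 in FLOX mice and 1550, 1741 and 1810 in those labelled MKO. All mice labelled MKO thus lay below all FLOX mice of the same diet, with a difference of -0.43 ± 0.06 (SE, adjusted p = 3.73e-06) on the control diet and -0.40 ± 0.06 (adjusted p = 6.75e-06) on CR. Gfm1 encodes the factor that moves the ribosome along the message. It measured 2093, 2214 and 2288 in control-diet FLOX mice against 1491, 1632 and 1781 in the labelled MKO mice, and 2188, 2267 and 2432 against 1595, 1685 and 1772 on CR. Its groups did not overlap on either diet, and it had the smallest adjusted p of all members, 3.53e-08 on the control diet and 1.35e-08 on CR (differences of -0.42 ± 0.04 and -0.43 ± 0.04, SE). These values come from a probe set marked as able to bind several transcripts (_s_at). The other Gfm1 set, without that mark, was lower by less, at -0.21 (adjusted p over probe sets 0.00223) on the control diet and -0.33 (1.01e-05) on CR. Tsfm encodes the exchange factor that recharges Tufm, and its pattern was unlike that of Tufm. It was called lower on CR (-0.12 ± 0.04 SE, adjusted p = 0.0281), with all 7 labelled MKO mice below all FLOX mice, but its difference on the control diet was -0.02 ± 0.04 (SE). The second Tsfm probe set went the other way on the control diet, at 0.15 (adjusted p over probe sets 0.00215). On CR it also had the opposite sign, at 0.05 (0.36), not called. Tsfm lost its CR call when its probe sets were averaged (-0.04, adjusted p = 0.398) and without CR FLOX mouse 1, 2, 3 or 4 or CR mouse 3 labelled MKO (adjusted p up to 0.0769).

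**Figure D2:**
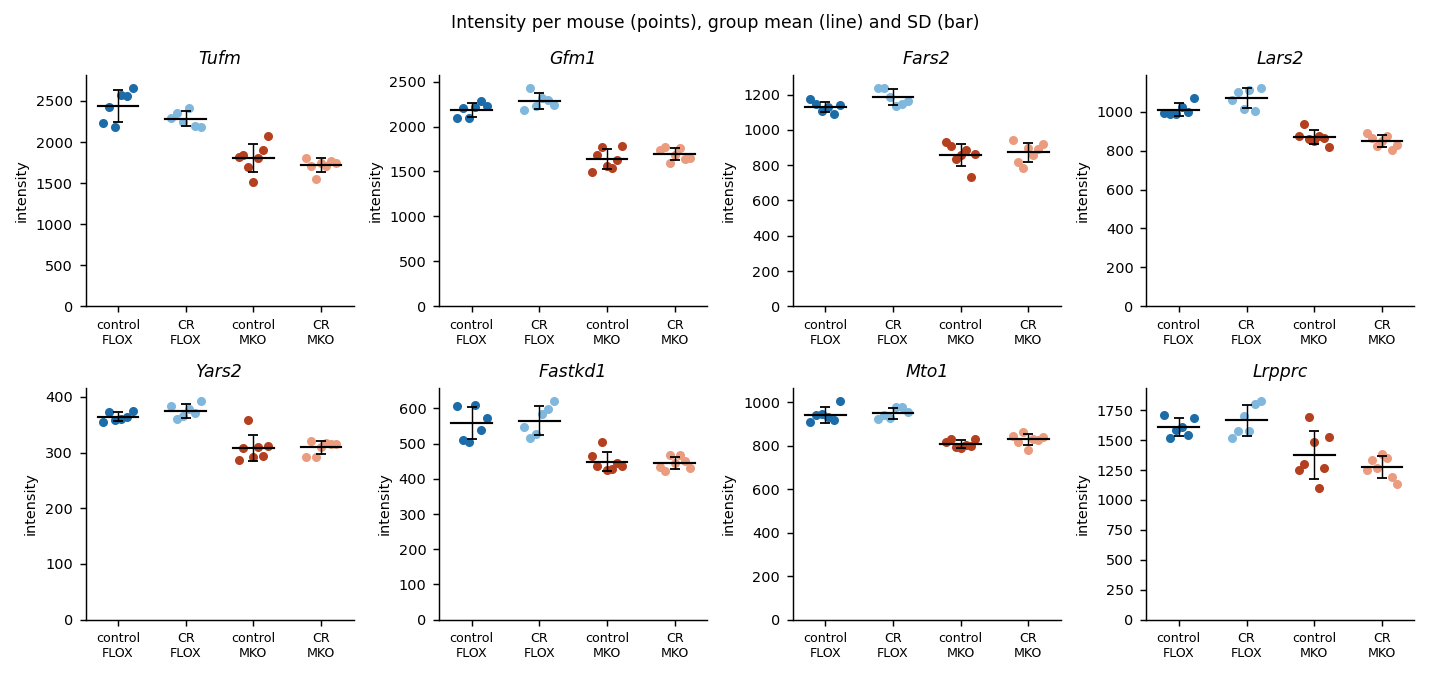
Intensity of 8 members (vertical axes, from 0) in each mouse of the 4 groups; points are mice, lines group means and bars SD. For Tufm, Gfm1, Fars2, Lars2, Fastkd1 and Mto1 all mice labelled MKO lie below all FLOX mice on the same diet, for Yars2 and Lrpprc on CR but not on the control diet.

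The start regions of the members were read for short motifs of partner factors of PGC-1a, since so many members were lower together. RefSeq windows from 250 bases before to 50 after the annotated start (GRCm38.p6) were at hand for 33 of the 36 listed genes. The letters CCGGAAGT, the core bound by GABP and other ETS factors, were found on either strand in 5 of the 33 (Rars2, Tufm, Gfm1, Trmu and Fastkd5), and in 4.31% of the 27025 genes with a window. The letters TCAAGGTCA, the site of estrogen-related receptors, were found in 1 of 33, Mtrf1l, and in 0.466% of all genes. Its shorter form AAGGTCA was found in 3 of 33, Gfm1, Mtrf1l (inside the longer site) and Fastkd5, and in 5.38% of all genes. The palindromic consensus of NRF1 was in none of the 33 windows and in 1.07% of all genes. Of the 16 windows of members called lower on at least 1 diet, 2 held the ETS letters, and of the 17 other windows 3 did. Hars2 and Mtif3, also called lower, had no window at hand. Counts this small cannot decide whether the letters go with a lower call. Rars2, Trmu and Fastkd5 hold matches too, but they were not called lower and their windows are not shown. The windows of the members called lower that hold a match, Tufm, Gfm1 and Mtrf1l, follow with the matched letters in capitals.
Tufm, GRCm38.p6 chr7:126487105-126487404, plus strand, CCGGAAGT in capitals: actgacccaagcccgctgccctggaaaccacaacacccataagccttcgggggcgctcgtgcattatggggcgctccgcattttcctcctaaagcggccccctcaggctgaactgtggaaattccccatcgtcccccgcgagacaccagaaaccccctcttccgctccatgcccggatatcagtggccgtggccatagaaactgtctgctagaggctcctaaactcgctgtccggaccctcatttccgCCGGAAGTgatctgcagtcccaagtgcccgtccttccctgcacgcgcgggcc
Gfm1, GRCm38.p6 chr3:67429865-67430164, plus strand, AAGGTCA on the opposite strand and CCGGAAGT in capitals: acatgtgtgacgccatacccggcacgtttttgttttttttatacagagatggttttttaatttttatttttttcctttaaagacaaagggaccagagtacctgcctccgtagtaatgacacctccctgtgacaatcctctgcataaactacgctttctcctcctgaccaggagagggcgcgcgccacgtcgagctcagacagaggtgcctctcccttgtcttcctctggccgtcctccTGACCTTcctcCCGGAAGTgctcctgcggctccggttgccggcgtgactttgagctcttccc
Mtrf1l, GRCm38.p6 chr10:5823894-5824193, minus strand, TCAAGGTCA in capitals: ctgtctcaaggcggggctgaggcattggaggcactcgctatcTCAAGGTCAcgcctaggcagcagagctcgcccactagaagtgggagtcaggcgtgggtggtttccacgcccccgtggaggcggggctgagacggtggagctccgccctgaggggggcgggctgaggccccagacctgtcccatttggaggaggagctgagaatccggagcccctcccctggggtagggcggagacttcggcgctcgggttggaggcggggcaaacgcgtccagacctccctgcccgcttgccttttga
In Tufm and Gfm1 the ETS letters straddle the annotated start, beginning 2 bases before it in Tufm and 1 base before it in Gfm1. In Mtrf1l the receptor site begins at position -208 relative to the start. A match is a description of the letters and shows no binding, and a window without a match says nothing on the factor.

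Each of the 16 synthetases loads its amino acid onto mitochondrial tRNA. Among them 4 were lower on the control diet and 6 on CR, beside 10.2% and 9.05% of all genes. The median difference of the synthetases was -0.10 on both diets. It ranged from -0.39 to 0.05 on the control diet and from -0.44 to 0.05 on CR. Fars2 loads phenylalanine. Its lowest, median and highest intensities were 1090, 1133 and 1174 in control-diet FLOX mice and 736, 866 and 930 in the mice labelled MKO. On CR they were 1136, 1176 and 1239 against 784, 892 and 943, so no mouse of one genotype reached the range of the other on either diet (differences -0.39 ± 0.05 and -0.44 ± 0.05, SE, adjusted p = 7.43e-07 and 7.26e-08). Lars2, for leucine, measured 986, 998 and 1070 against 816, 866 and 937 on the control diet and 1005, 1082 and 1123 against 802, 849 and 893 on CR. Again the genotypes did not overlap, and the difference was -0.22 ± 0.04 (SE, adjusted p = 8.14e-05) on the control diet and -0.33 ± 0.04 (adjusted p = 1.28e-07) on CR.

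Yars2, for tyrosine, measured 355, 363 and 375 in control-diet FLOX mice against 287, 308 and 358 in those labelled MKO, where mouse 3 alone reached the FLOX range. On CR it measured 360, 374 and 393 against 292, 315 and 321, without overlap. The differences were -0.23 ± 0.04 (SE, adjusted p = 0.000109) and -0.27 ± 0.04 (adjusted p = 1.36e-05). Cars2, for cysteine, was lower on both diets, with 405 ± 21.9 (SD, n = 6) against 353 ± 28.4 (SD, n = 7) on the control diet and 367 ± 20.6 against 332 ± 12.0 on CR, differences of -0.19 ± 0.05 (SE, adjusted p = 0.00425) and -0.14 ± 0.05. Its CR call (adjusted p = 0.0377) was lost without any 1 of 7 mice, CR FLOX mice 1, 4, 5 and 6 and labelled MKO mice 2, 3 and 7 (adjusted p up to 0.0928), and under median centring, quantile normalization or averaging of probe sets (0.0866 to 0.107). Hars2, for histidine, and Vars2, for valine, were called on CR alone, at -0.22 ± 0.05 (SE, adjusted p = 0.00177) and -0.11 ± 0.03 (adjusted p = 0.0308). Vars2 lost its call without any 1 of 6 mice, CR FLOX mice 2 and 4 and CR mice 2, 3, 5 and 6 labelled MKO (up to 0.0843), and with array weights, with only the compared groups fitted, with probe sets averaged or under quantile normalization (0.0557 to 0.0938). Mouse 6 is the slow-rich array.

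The other 10 synthetases passed on neither diet. Rars2, for arginine, and Sars2, for serine, came closest, at -0.19 (adjusted p = 0.055) on the control diet and -0.16 (adjusted p = 0.054) on CR. Each passed when some single mice were left out: Rars2 on the control diet without control-diet mouse 1, 2 or 5 labelled MKO or CR FLOX mouse 2 (adjusted p of 0.013 to 0.0493), and Sars2 on CR without control-diet mouse 1, 3 or 6 or CR mouse 1 labelled MKO (0.0212 to 0.0433), with array weights (0.0245) or with only the compared groups fitted (0.0318), and on the control diet without control-diet mouse 1 labelled MKO (0.0306). Wars2, for tryptophan, passed on the control diet without control-diet mouse 4 labelled MKO (0.0488). Iars2, for isoleucine, had differences of 0.05 on the control diet and 0.03 on CR, and Ears2, for glutamate, 0.01 and -0.02.

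The factors that end a chain and free the ribosome were lower as well. Of the 3 measured, 2 were called on the control diet and 3 on CR, where 10.2% and 9.05% of all genes were called lower. Mrrf is the ribosome recycling factor. It measured 431, 475 and 481 (lowest, median and highest) in control-diet FLOX mice against 383, 418 and 429 in those labelled MKO, and 411, 437 and 472 against 348, 364 and 388 on CR. The genotypes did not overlap on either diet, with differences of -0.17 ± 0.04 (SE, adjusted p = 0.00237) and -0.25 ± 0.04 (adjusted p = 2.8e-05). Gfm2, which works with Mrrf in splitting the ribosome, differed by -0.17 ± 0.04 (SE, adjusted p = 0.0013) on the control diet, without overlap, and by -0.12 ± 0.04 (adjusted p = 0.0149) on CR. Under median centring the CR value of Gfm2 was -0.10 (adjusted p = 0.0615).

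Mtrf1l, the release factor that reads stop codons, measured 269, 298 and 315 against 250, 263 and 291 on the control diet and 269, 319 and 342 against 237, 262 and 285 on CR. It was called on CR (-0.27 ± 0.05 SE, adjusted p = 0.000338), where 6 of 7 mice labelled MKO lay below all FLOX mice, and not on the control diet (-0.14 ± 0.05 SE, adjusted p = 0.0565). The control-diet value passed without control-diet FLOX mouse 2, control-diet mouse 2 or 3 labelled MKO, CR FLOX mouse 2 or CR mouse 5 labelled MKO (adjusted p of 0.0314 to 0.0481). Of the 3 initiation genes, Mtif3 alone was called, on CR (-0.11 ± 0.03 SE, adjusted p = 0.0202), with 7 of 7 labelled MKO mice below all FLOX mice. That call was lost without CR FLOX mouse 4 (0.0678) and under median centring or quantile normalization (0.0538 and 0.0656). Mtif2, the initiation factor that places the first tRNA, differed by -0.02 ± 0.08 (SE) on the control diet and -0.17 ± 0.08 on CR, and Mtfmt, which formylates the initiator methionine, by -0.08 ± 0.04 and -0.10 ± 0.04. The second Mtfmt probe set was lower on both diets, at -0.17 on each (adjusted p over probe sets 0.0072 and 0.00575), and with probe sets averaged Mtfmt passed on both (0.000399 and 9.32e-05).

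Of the 4 tRNA-modifying enzymes 1 was lower on both diets, beside 10.2% of all genes lower on the control diet and 9.05% on CR. Mto1 makes, with Gtpbp3, the taurine modification of the wobble base of several mitochondrial tRNAs. It measured 907, 936 and 1006 in control-diet FLOX mice against 789, 802 and 832 in those labelled MKO, and 921, 948 and 980 against 778, 833 and 865 on CR. These ranges did not overlap, and the difference was -0.21 ± 0.03 (SE, adjusted p = 7.77e-06) on the control diet and -0.19 ± 0.03 (adjusted p = 2.74e-05) on CR. Its partner Gtpbp3 differed by 0.00 ± 0.07 (SE) on the control diet and -0.05 ± 0.07 on CR. Trmu, which adds sulphur to the same wobble base, differed by -0.10 ± 0.06 and -0.13 ± 0.06, and the pseudouridine synthase Pus1 by -0.07 ± 0.04 and 0.01 ± 0.04, none of them called.

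The 6 genes for RNA-binding proteins of mitochondrial messages held 3 lower members on each diet, beside 10.2% and 9.05% of all genes. Lrpprc and Slirp encode a complex that keeps mitochondrial messages stable and tailed. Lrpprc measured 1519, 1595 and 1707 in control-diet FLOX mice against 1101, 1298 and 1696 in those labelled MKO, where 5 of 7 mice lay below all FLOX mice and mice 3 and 7 reached the FLOX range. On CR it measured 1518, 1640 and 1827 against 1131, 1268 and 1384, without overlap. The differences were -0.23 ± 0.07 (SE, adjusted p = 0.0219) and -0.38 ± 0.07 (adjusted p = 0.000348). Leaving out mouse 6 of the FLOX controls ended the control-diet call (0.0533), as did median centring (0.0677) and a fit of the compared groups alone (0.0612). Slirp was lower on the control diet, 2372 ± 102 (SD, n = 6) against 2131 ± 125 (SD, n = 7), a difference of -0.15 ± 0.04 (SE, adjusted p = 0.00528). On CR it was 2385 ± 88.4 in FLOX mice and 2368 ± 83.1 in those labelled MKO, a difference of -0.01 ± 0.04 (SE).

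Among the FASTK-domain genes, whose proteins act in the maturation of particular mitochondrial RNAs, Fastkd1 was lower on both diets. It measured 506, 557 and 610 against 425, 438 and 504 on the control diet and 515, 565 and 621 against 422, 445 and 469 on CR. On the control diet the highest mouse labelled MKO lay just under the lowest FLOX mouse. The differences were -0.30 ± 0.05 (SE, adjusted p = 0.000104) and -0.33 ± 0.05 (adjusted p = 2.59e-05). Fastkd2 was called on CR alone (-0.20 ± 0.05 SE, adjusted p = 0.00404), where 2 of 7 mice labelled MKO lay below all FLOX mice, and both of its other probe sets above the filter passed there too. Fastkd5 differed by 0.01 on the control diet and by -0.01 on CR, and Fastkd3 by -0.06 and 0.02.

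The genotype difference was measured in separate mice on each diet, but 1 fit with a shared estimate of spread gave both sets of calls. Of the 12 members lower on the control diet 11 were lower on CR, which is 91.7% of the first list and 64.7% of the 17 of the second: Cars2, Fars2, Fastkd1, Gfm1, Gfm2, Lars2, Lrpprc, Mrrf, Mto1, Tufm and Yars2. In all, 18 members were lower on at least 1 diet. The same overlap over all genes was not counted. Over the 35 members the differences on the 2 diets correlated at r = 0.812, a description over genes of the same arrays, and over all 14854 genes at 0.783. Genotypes did not overlap for 8 members on the control diet and 11 on CR, beside 6.64% and 7.72% of all genes. Of the members called lower, 8 on the control diet had another probe set above the filter, 9 in all, and each of these 9 had the same sign, 3 of them with a call. On CR 12 had another, 14 in all, of which 12 had the same sign and 5 a call. Several second sets gave much smaller differences than the reported ones. Those of Lars2 were -0.08 (adjusted p over probe sets 0.129) on the control diet and -0.09 (0.0842) on CR, neither called. The second set of Fars2 gave -0.20 (0.0982) on the control diet, not called, and -0.25 (0.0398) on CR, called. Second sets of Gfm2, Fastkd1 and Yars2 gave -0.04, -0.04 and -0.08 on the control diet and -0.05, -0.01 and -0.01 on CR, none called. On CR the second sets of Hars2 and Vars2 gave -0.06 and -0.05, not called. Of the 2 further Cars2 sets, 1 gave -0.20 (0.00711) and -0.13 (0.0837) and the other -0.02 and 0.00. The second Tufm set was as low as the first, at -0.44 and -0.49 (8.43e-07 and 9.07e-08). Of the 6 slow-fibre markers none was called on the control diet and 1 was higher on CR, with a median difference of 0.43 on each, and their part in the result was not tested. Of the fibroblast and tendon, endothelial and macrophage markers 1, 1 and 1 were lower on the control diet, and 0, 2 and 0 on CR. Without the slow-rich CR array labelled MKO the count on CR was 16.

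Calorie restriction moved few members. In FLOX mice 3 of 35 rose and none fell, and in mice labelled MKO 4 rose and 1 fell. The methionine synthetase gene Mars2 rose most in both, by 1.25-fold each. Over all genes 4.66% rose and 5.37% fell with CR in FLOX mice, and 6.64% rose and 8.48% fell in mice labelled MKO. In either direction the share called was thus 8.57% of members against 10% of all genes in FLOX mice, near the background. In mice labelled MKO it was 14.3% against 15.1%, also near it. By sign the members leaned upward. In FLOX mice 25 of the 35 had a positive change and 10 a negative one, and in mice labelled MKO 22 and 13. Of all genes, 49.4% and 49.5% had a negative change. The median change of the members was 0.05 in FLOX mice and 0.02 in mice labelled MKO, with medians of 0.00 over all genes. Markers of other cells moved with diet: of 7 fibroblast and tendon markers 6 were lower on CR in each genotype (medians -0.74 and -0.71), of 6 endothelial markers 2 were lower in FLOX mice and 5 in mice labelled MKO, and of 5 macrophage markers 2 and 1. The part of these markers in the diet values was not tested.

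**Figure D3:**
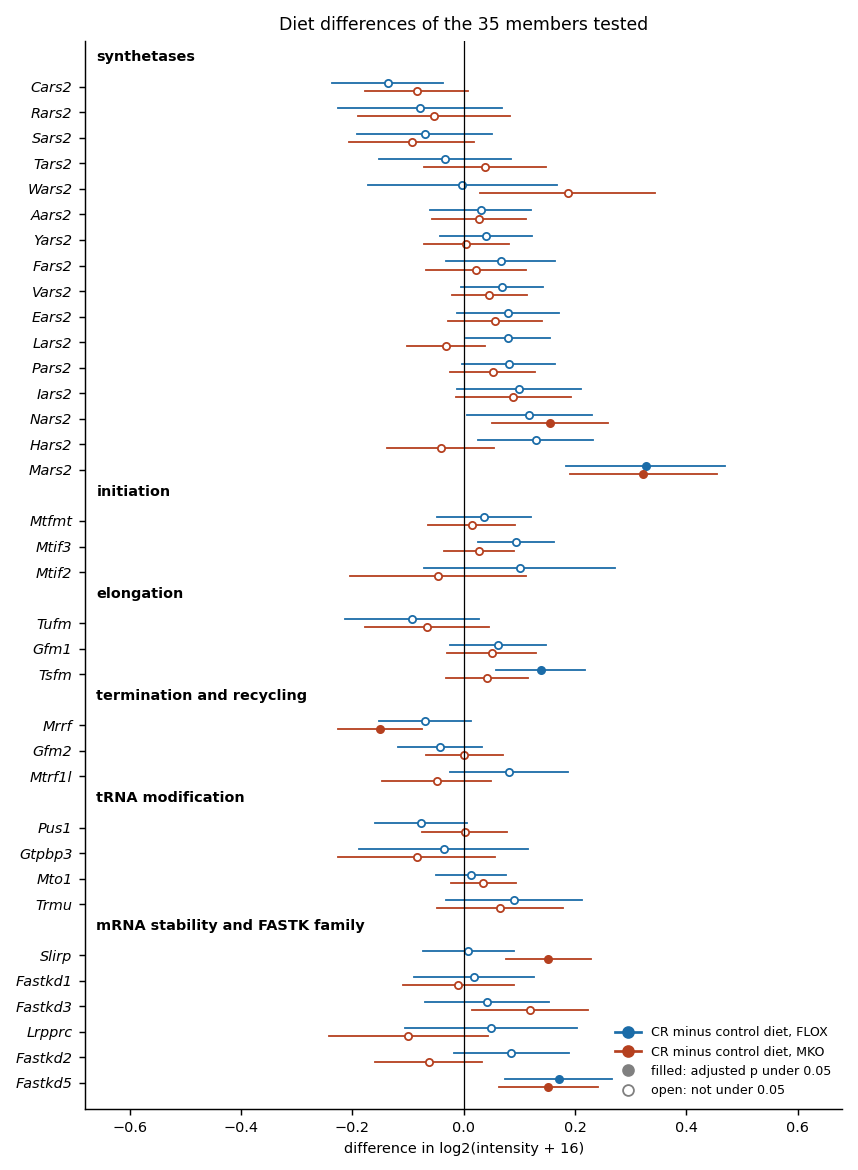
Change in log2(intensity + 16) with CR (horizontal axis) for the 35 members, grouped by role, in FLOX mice (blue) and in mice labelled MKO (red). Points are limma estimates, bars 95% confidence intervals and filled points have an adjusted p under 0.05; Mars2 lies farthest right in both genotypes, at 0.33 and 0.32.

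Mars2 had intensities of 185 ± 20.3 (SD, n = 6) on the control diet and 235 ± 13.0 (SD, n = 6) on CR in FLOX mice, and all 6 CR mice lay above all control mice. In mice labelled MKO it went from 173 ± 16.1 (SD, n = 7) to 221 ± 22.5 (SD, n = 7), with 6 of 7 CR mice above all control mice. The changes were 0.33 ± 0.07 (SE, adjusted p = 0.00281) and 0.32 ± 0.06 (adjusted p = 0.00101). The probe set is dim, and with the stricter filter at the 50th percentile Mars2 was not tested. Fastkd5, which acts in the processing of mitochondrial messages that no tRNA borders, rose from 441 ± 10.8 to 499 ± 25.3 (SD) in FLOX mice and from 446 ± 27.5 to 498 ± 35.3 (SD) in mice labelled MKO. Its changes were 0.17 ± 0.05 (SE, adjusted p = 0.0189) and 0.15 ± 0.04 (adjusted p = 0.0175). Both Mars2 and Fastkd5 were free of overlap in FLOX mice, where 5.4% of all genes were. In mice labelled MKO no member was, beside 3.48% of all genes. The FLOX call of Fastkd5 was lost without CR FLOX mouse 1 (0.053), and the other with only the compared groups fitted (0.0618).

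**Figure D4:**
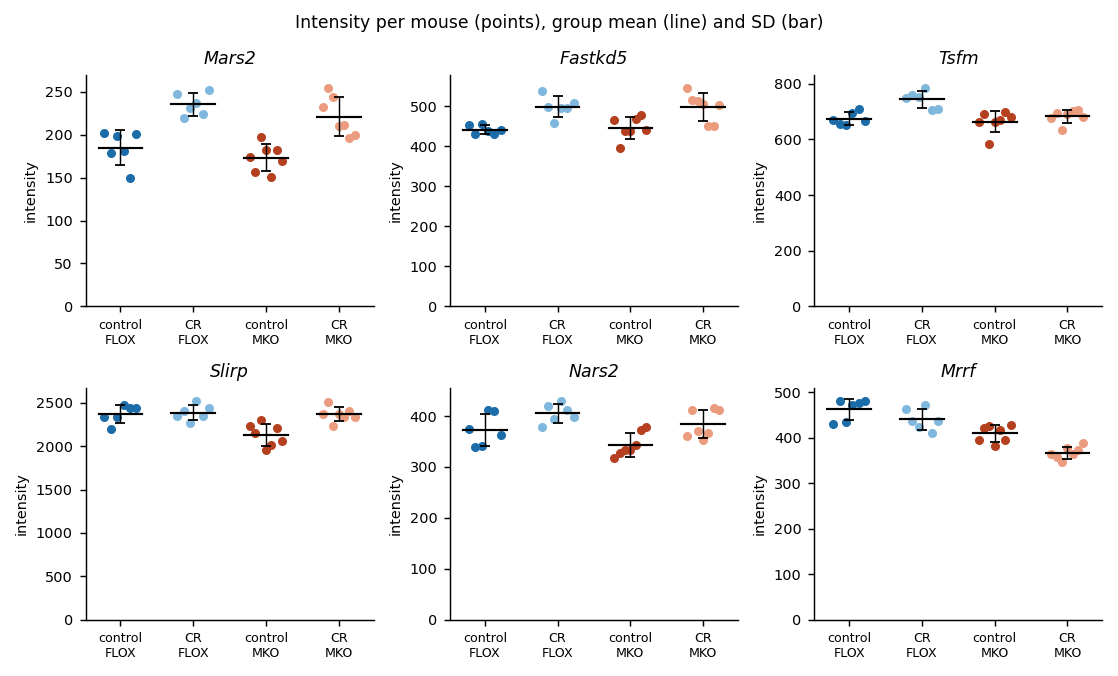
Intensity of the 6 members called in a diet comparison (vertical axes, from 0) in each mouse of the 4 groups; points are mice, lines group means and bars SD. Mars2 and Fastkd5 are higher on CR in both genotypes, Slirp and Nars2 are called in mice labelled MKO, and Mrrf is lowest in CR mice labelled MKO, at 348 to 388.

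The other diet calls fell in 1 genotype each. Tsfm rose in FLOX mice from 674 ± 23.1 to 744 ± 30.7 (SD, n = 6 each), by 0.14 ± 0.04 (SE, adjusted p = 0.0224), and 5 of 6 CR mice lay above all control mice. Leaving out CR FLOX mouse 4, or mouse 2 or 3 of the FLOX controls, ended that call (adjusted p up to 0.0552). In mice labelled MKO, Slirp rose from 2131 ± 125 to 2368 ± 83.1 (SD, n = 7 each), by 0.15 ± 0.04 (SE, adjusted p = 0.0057), which brought it to the FLOX level of 2385. Mrrf fell there from 410 ± 18.2 to 367 ± 13.4 (SD), a change of -0.15 ± 0.04 (SE, adjusted p = 0.00605), and all but 1 of the 7 CR mice were under every control mouse. Nars2, for asparagine, rose from 344 ± 23.8 to 384 ± 27.5 (SD), by 0.15 ± 0.05 (SE, adjusted p = 0.0376). That call was lost without any 1 of 8 mice labelled MKO, control-diet mice 1 to 5 and CR mice 2, 6 and 7 (adjusted p up to 0.0888), with array weights (0.052), with only the compared groups fitted (0.0603) and with probe sets averaged (0.174), and the second Nars2 set gave 0.03.

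The members that differed most between genotypes changed little with diet on their reported probe sets. Tufm changed by -0.09 ± 0.06 (SE) in FLOX mice and -0.07 ± 0.05 in mice labelled MKO, Fars2 by 0.07 ± 0.05 and 0.02 ± 0.04, and Mto1 by 0.01 ± 0.03 and 0.04 ± 0.03. For Gfm1 and Fars2 the probe sets differed. The reported Gfm1 set changed by 0.06 and 0.05, while the second, which bears no mark of binding several transcripts, rose by 0.26 in FLOX mice and 0.14 in mice labelled MKO (adjusted p over probe sets 0.00102 and 0.0379). The second Fars2 set had values of 0.26 and 0.21, not called (0.0658 and 0.0928). With probe sets averaged, Gfm1 and Fars2 passed in FLOX mice (0.16 each, adjusted p = 0.00844 and 0.0128) and Fars2 in mice labelled MKO (0.11, adjusted p = 0.0453). Single mice decided other values: Mtif3 passed in FLOX mice without control-diet FLOX mouse 6 (0.0149), Hars2 without CR FLOX mouse 4 (0.0432), and Cars2, downward, without control-diet FLOX mouse 2 (0.0426) or with array weights (0.0374). In mice labelled MKO, Iars2 passed without control-diet mouse 3 (0.0425) and Wars2 without control-diet mouse 4 (0.0165).

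Whether the diet effect differed by genotype was tested as an interaction. No member passed for the interaction, and no gene of the 14854 did, so the share called was 0% (limma). At an unadjusted p under 0.05 there were 4 members of 35, beside 4.85% of all genes (720). These were Slirp, Hars2, Lars2 and Fastkd2. The diet effect of Slirp was higher in mice labelled MKO by 0.14 (95% confidence interval 0.03 to 0.26). Those of Hars2, Lars2 and Fastkd2 were lower there, with interaction values of -0.17 (-0.31 to -0.03), -0.11 (-0.21 to -0.01) and -0.15 (-0.29 to -0.01). Every member had an adjusted p of 0.999, so the calls that fell in 1 genotype or on 1 diet above are not shown to differ between them.

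Other genes of mitochondrial translation and RNA maturation were read from a list of 50, of which 49 were tested. The list covers mainly RNA maturation, ribosome assembly and the remaining tRNA loading, with some genes of other roles. It leaves out nearly all mitochondrial ribosomal proteins, so it is not the whole rest of the machinery. On the control diet 13 were lower and 1 higher in mice labelled MKO, and on CR 16 were lower and 1 higher, with medians of -0.08 and -0.10, where 10.2% and 9.05% of all genes were lower. Qrsl1, a subunit of the amidotransferase that completes glutaminyl-tRNA in mitochondria, differed by -0.29 (adjusted p = 1.31e-06) and -0.41 (adjusted p = 2.86e-09). Ptcd2, an RNA-binding protein, differed by -0.29 (adjusted p = 2.04e-06) on the control diet, and Supv3l1, the helicase of mitochondrial RNA decay, by -0.35 (adjusted p = 7.06e-07) on CR. The gene higher on both diets was Kars, whose enzyme serves both the cytosol and mitochondria, at 0.13 and 0.14 (adjusted p = 0.00884 and 0.00603). With CR 14 of the 49 rose and none fell in FLOX mice, and 10 rose and none fell in mice labelled MKO. That is 28.6% of the list beside 4.66% of all genes that rose in FLOX mice, and 20.4% beside 6.64% in mice labelled MKO, with median changes of 0.10 and 0.06. Hsd17b10, a subunit of the enzyme that trims mitochondrial tRNA ends, rose by 0.27 (adjusted p = 0.00155) and Supv3l1 by 0.18 (adjusted p = 0.00669) in FLOX mice. In mice labelled MKO Gars, the glycine synthetase of both compartments, rose by 0.22 (adjusted p = 0.000651) and Trnt1, which adds the CCA end to tRNAs, by 0.30 (adjusted p = 0.00146).

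The cytosolic synthetases and their scaffold proteins moved both ways. Of 22 tested, 2 of them shared with the list above, 2 were lower and 4 higher in mice labelled MKO on the control diet, and 1 was lower and 5 higher on CR, with medians of 0.02 and 0.09. The share called in either direction was 27.3% on each diet, beside 19.3% and 17.3% of all genes. The scaffold gene Aimp1 was higher on both diets, at 0.14 and 0.18 (adjusted p = 0.00111 and 0.000107), and Sars, the serine synthetase, lower on the control diet at -0.25 (adjusted p = 0.0019). With CR 2 rose and 1 fell in FLOX mice, Kars and Farsb upward and the methionine synthetase Mars1 downward (-0.18, adjusted p = 0.0277). Mars1 also fell in mice labelled MKO, at -0.16 (adjusted p = 0.0286), where 3 rose and 2 fell, so the cytosolic and the mitochondrial methionine synthetase changed in opposite directions with CR in both genotypes. The pair was set side by side after its values were seen. Of the 22 genes, 13.6% were called with CR in FLOX mice and 22.7% in mice labelled MKO. Over all genes these shares were 10% and 15.1%.

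**Figure D5:**
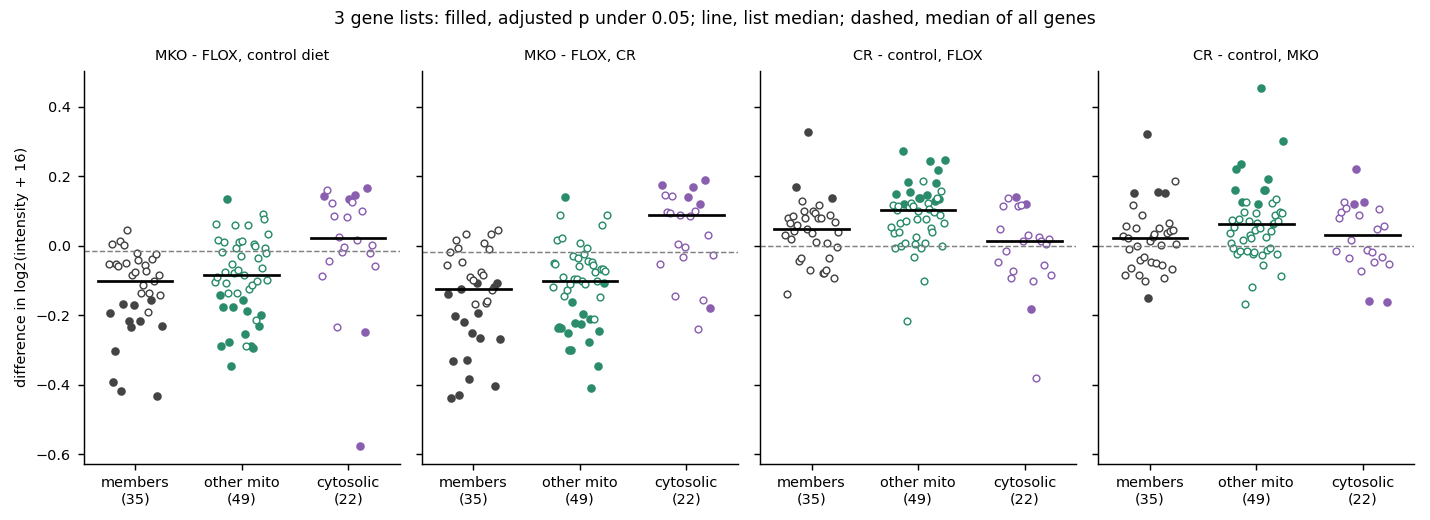
Difference in log2(intensity + 16) (vertical axis) of each gene of 3 lists, in the 2 genotype and the 2 diet comparisons: the members, other mitochondrial translation genes and cytosolic synthetases. Filled points have an adjusted p under 0.05, lines are list medians and the dashed line is the median of all genes; the medians of both mitochondrial lists lie at -0.12 to -0.08 in the genotype panels, those of the cytosolic list at 0.02 and 0.09.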

How the data were processed

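TA/EDL RNA of 26 mice was measured on 1-colour Affymetrix arrays, and biotin-labelled cRNA was prepared, per the labels' protocols. The authors deposited 1 processed intensity per probe set on a linear scale for 45101 probe sets; how background, probe summary and normalization were handled is not stated in the sources at hand. The lowest intensity was 56.6 and array medians were 212 to 232. Probe sets naming 1 gene (34945) were kept. For 34741 of them the symbol was taken from the matching RefSeq gene, whether or not it changed. Log2(intensity + 16) was taken, probe sets under the 30th percentile of mean (7.47) were dropped, and the brightest remaining set stood for each gene (14854 genes, 1 member through an _s_at or _x_at set). Limma 3.58.1 in R 4.3.3 fitted 1 mean per group over all 26 arrays, with Benjamini-Hochberg adjustment over all genes and a threshold of 0.05. As a check of the code, the procedure was run on simulated data in which genes varied independently. That run does not measure the error rate on these arrays. Labels do not say whether mice of a group differ in litter. All members may be named; lowest, median and highest values are given for the 10 of smallest adjusted p, and of other lists the 2 of smallest p. Other named genes were chosen after their values were seen. The members and lists were chosen with earlier results of these data known. Alternatives changed the pseudocount, filter, normalization, probe set, variance model, weights, arrays and threshold. No scan dates were used.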

Additional observations from a re-analysis of the deposited data

Results flagged for a closer look

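A single mouse stood apart from the others of its group for 13 of the 144 sets of values (36 genes in 4 groups), by Dixon's test at its 95% critical value. Chance flags about 1 in 20 such sets. Among control-diet FLOX mice, Rars2 stood at 1428 in mouse 2, above the rest, the nearest of which was 1250. In that group Mtif2 stood at 604 in mouse 5 (nearest of the rest 542). Among CR FLOX mice, Hars2 stood at 536 in mouse 4, below the rest, the nearest of which was 590. In that group Mtif3 stood at 430 in mouse 4 (nearest of the rest 397). Among control-diet mice labelled MKO, Yars2 stood at 358 in mouse 3, above the rest, the nearest of which was 311. In that group Tsfm stood at 584 in mouse 3 (nearest of the rest 663). In that group Pus1 stood at 436 in mouse 4 (nearest of the rest 487). In that group Fastkd2 stood at 788 in mouse 6 (nearest of the rest 709). The targeted gene Ppargc1a stood at 2360 in mouse 3 of the same group, above the rest, the nearest of which was 1518. Among CR mice labelled MKO, Tufm stood at 1550 in mouse 3, below the rest, the nearest of which was 1712. In that group Tsfm stood at 634 in mouse 3 (nearest of the rest 677). In that group Mtfmt stood at 267 in mouse 7 (nearest of the rest 280). In that group Fastkd2 stood at 602 in mouse 1 (nearest of the rest 665). Mouse 3 of the control-diet group labelled MKO thus stood apart for Ppargc1a, Tsfm and Yars2.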

How the results depend on the processing

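Of the 37 member calls in the 4 diet and genotype comparisons, 27 held in every setting that tested them, over 13 other settings and 26 that left out 1 mouse, 10 were lost in at least 1, and none changed sign. The 27 include the genotype calls of Lars2, Fastkd1 and Yars2. Their second sets, which were not called, entered the settings only through the average. Leaving out a mouse of a group not compared leaves the difference itself unchanged. Lower members on the control diet numbered 12 and stayed between 11 and 16 in other settings and between 11 and 14 with a mouse left out; on CR the 17 stayed between 14 and 19 and between 13 and 18. The count for CR in FLOX mice, 3, was 5 with probe sets averaged and 5 at an adjusted p under 0.1, and 2 to 4 with a mouse left out. The count for CR in mice labelled MKO, 5, was 3 with only the groups compared in the fit, and 4 to 5 with a mouse left out. The interaction had 0 members called in every setting. Under quantile normalization and median centring 14 members were lower on CR. With the replicate block the counts were 3, 5, 12, 17 and 0, the same members. Same-numbered mice of different groups deviated together at r of -0.36 to 0.34 (median 0.0826). For differently numbered mice of different groups r was -0.425 to 0.496 (median -0.0121). Whether the numbers pair the mice was not tested. Signal over background could not be judged per array, since no detection calls were used.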
